A study of Mus musculus with 6 samples.

Results

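Kif2a, the gene targeted in this study, and the other kinesin genes outside axonal transport were followed in dorsal root ganglia of mice 6 months old. The members were all genes of the deposited table whose symbol is Kif followed by a digit, except the long-range axonal motors Kif1a, Kif1b, Kif3a, Kif3b, Kif3c, Kif5a, Kif5b and Kif5c. They numbered 28 of the 16613 genes in the table, and 27 of them encode kinesin motors of 11 subfamilies. The other one, Kif1bp, encodes a protein that binds kinesins and is not itself a motor. The annotated genes Kif2b, Kif12 and Kif28 were not analysed here.

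The control group, called WT in the sample titles, had the genotype Kif2a fl/fl, meaning that both Kif2a alleles are flanked by loxP sites. The knockout group had the genotype Kif2a fl/fl; Avil cre, so the same alleles were combined with Cre recombinase under Avil, which is used to direct Cre to sensory neurons. Both groups had 3 libraries made from poly(A) RNA. A dorsal root ganglion also holds satellite glia, Schwann cells, macrophages, fibroblasts and vessels, and reads of Kif2a from all of these are counted together with those from neurons. In such whole-tissue samples, fewer cells of a type and less RNA per cell cannot be told apart. Sensory neuron markers were abundant in all libraries, their summed level over 10 genes running from 10466 to 11843 CPM in the control and from 9572 to 11670 CPM in the knockout. CPM stands for a gene's counts per 1e+06 counts of its library. Of the 10 markers, 3 fell in the fit with the replicate block described below, and the other 7 did not pass. Over all tested genes, 2.36% fell in that fit. Without the block, 5 of the 10 markers had a positive and 5 a negative log2 fold change, with a median of -0.018. Snap25 was higher in every knockout library, at 1663 ± 122 CPM in the control and 1992 ± 71.1 CPM in the knockout (SD, n = 3). It did not pass. Avil itself, the gene that drives Cre, was at 1095, 1052 and 1003 CPM in the control and 518, 451 and 439 CPM in the knockout. All knockout libraries lay below all control libraries, and Avil fell by 1.16 on the log2 scale with the block (SE 0.07, edgeR adjusted p = 2.39e-05). Only the knockout group carried Avil cre, and the part of that allele in the level of Avil was not tested. The sodium channel genes of pain-sensing neurons Scn10a and Scn9a also fell, Scn10a from 1167 ± 133 to 740 ± 129 CPM (SD, n = 3; edgeR adjusted p = 0.000426) and Scn9a from 528 ± 64.6 to 434 ± 58.7 CPM (adjusted p = 0.0333).

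Kinesins are motors that hydrolyse ATP on microtubules. Most walk along the microtubule and carry cargo, while kinesin-13 motors such as Kif2a stay at the microtubule end and take tubulin off it. In neurons Kif2a is known to trim axon collaterals and to take part in the pruning of sensory axons. Many other members act in the spindle, the midzone or the cilium, and most neurons of an adult ganglion do not divide.

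The libraries held 16090726 to 19221415 counts each. A count of 3 corresponds to 0.156 to 0.186 CPM at this depth. Levels are CPM after TMM scaling, which sets libraries on a common level by a trimmed mean of log ratios. Values are given in the order of replicates 1 to 3, and log2 fold changes are knockout minus control. Of the 28 members, 27 passed the filter on low counts. Kif18b was left out by it. The labels do not tell whether each library came from its own animal, and p-values then measure only the spread between these libraries, which may be technical. Control replicate 2 stood apart in muscle RNA, with a summed level of 1119 CPM over 5 muscle markers against 4.52 to 49.0 CPM in the other libraries. Without it the log2 fold change shrank for some members, for example to 0.00077 in place of 0.23 for Kif21b and -0.045 in place of -0.26 for Kif2c. It was -0.088 in place of -0.22 for Kif9 and 0.073 in place of 0.20 for Kif7. For others it grew, for example to -0.56 in place of -0.32 for Kif26b, -0.48 in place of -0.34 for Kif13b and 0.47 in place of 0.36 for Kif20a. None of these passed either way in the fit without the replicate block described below. The log2 fold change of Kif23 without that library is given below. The ranges of members whose sign changed are in the closing notes.

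Libraries of the same number were taken as pairs from the data (correlations in the processing notes), and each test was run without and with the replicate number as a block. Without the block, edgeR called 0 of 27 tested members and 0 of 15043 tested genes (0.0%) at an adjusted p of 0.05. At an unadjusted p under 0.05 there were 2 members (7.41%), against 5.48% of all tested genes, and 0 members were called by DESeq2 (0.432% of all tested genes) or limma-voom (0.0%). With the block, edgeR called 1 member, Kif23, which was lower. That is 3.7% of the members, against 3.6% of all tested genes and 2.36% for genes that were lower. The words rose and fell are used below only of genes that passed with the block. The share of members called was close to that of all tested genes. Their median log2 fold change was 0.03 without the block, beside 0.01 over all tested genes.

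**Figure D1:**
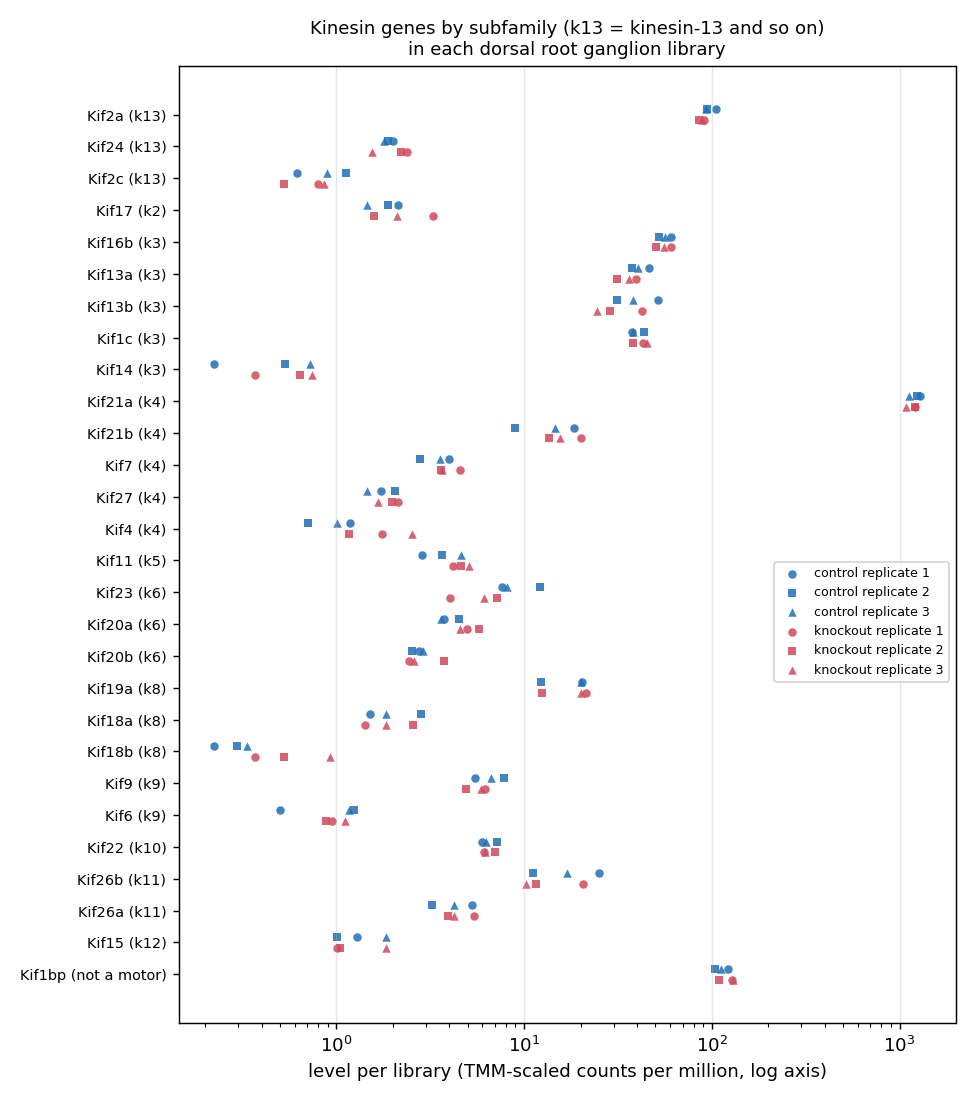
Level of each of the 28 members in each library, in TMM-scaled CPM on a log axis, grouped by kinesin subfamily, with control libraries in blue, knockout libraries in red and the replicate number as the symbol shape. Control means span 0.285 CPM (Kif18b) to 1219 CPM (Kif21a), and for most members the colours interleave.

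Set against transcript length, the members differed widely in level in control ganglia. Kif21a, a kinesin-4 motor that slows microtubule growth, stood at 188 ± 12.9 CPM per kb of exon (SD, n = 3). That was 12.4 times the level per length of Kif2a and 78.6% of the summed level per length of the 27 motor genes. Kif1bp was next at 23.0 CPM per kb, and Kif2a followed at 15.2 ± 1.12 CPM per kb. These 3 genes did not overlap with their neighbours in the order. Kif16b, Kif1c, Kif13a, Kif19a and Kif13b came next, from 6.26 down to 3.10 CPM per kb, and each overlapped with the next in the order. Below a gap, the 12 genes from Kif9 (1.54 CPM per kb) to Kif27 (0.336) again overlapped with their neighbours. The 8 genes from Kif24 (0.237) to Kif14 (0.0476) formed the lowest stretch. The 11 motors of mitosis lay between 0.0476 and 1.31 CPM per kb, so all of them were less abundant per length than the kinesin-3 motors Kif16b, Kif1c, Kif13a and Kif13b.

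**Figure D2:**
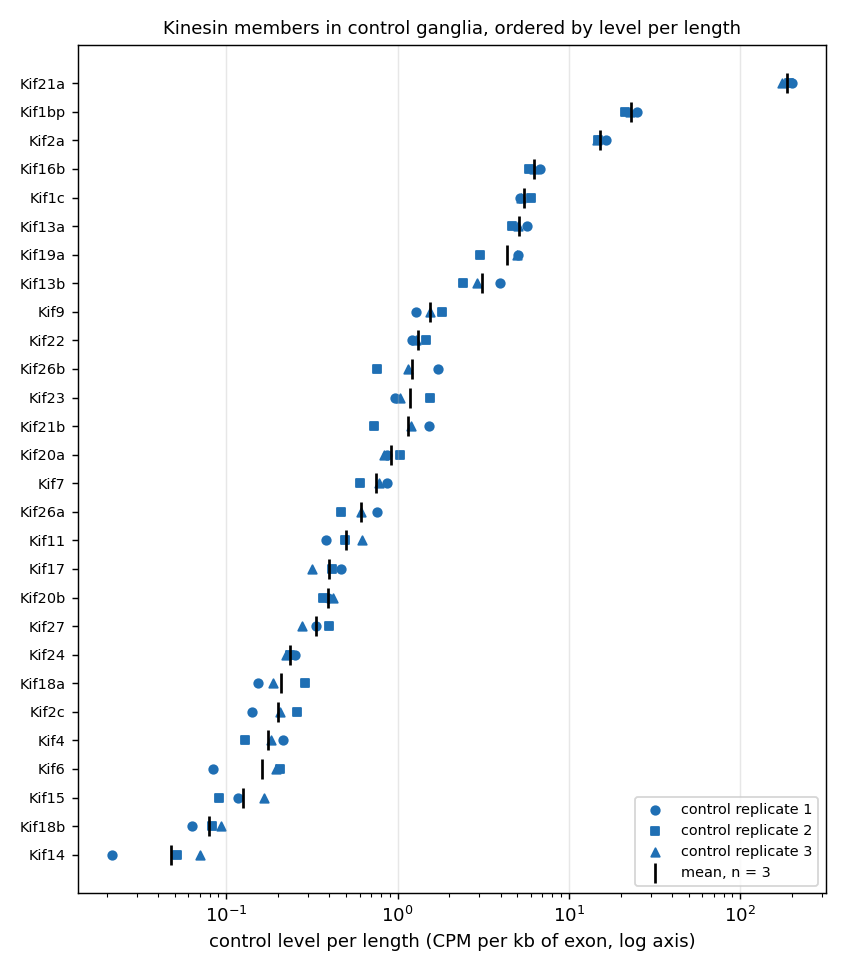
Control level of each member per kb of exon, on a log axis, ordered from the highest to the lowest mean, with symbols for the 3 control libraries and a black bar for their mean. Kif21a stands alone at 188 CPM per kb, followed by Kif1bp and Kif2a.

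Kif2a was at 105.6, 93.9 and 92.7 CPM in the control and 90.6, 85.7 and 88.5 CPM in the knockout. Every knockout library lay below every control library, but the nearest values, 90.6 and 92.7 CPM, were close. The log2 fold change was -0.14 (SE 0.10, edgeR adjusted p = 0.957), and the 95% confidence interval of the knockout level ran from 76.9% to 107% of control. With 1 library left out, the log2 fold change ran from -0.18 to -0.093, the latter without control replicate 1. With the replicate block the interval narrowed to 82.0% to 100% of control and the adjusted p was 0.284. Which exons were flanked by loxP sites is not stated in the labels, and a count over the whole gene does not show whether they were missing. The Kif2a locus is chr13:106958996-107022126, minus strand (GENCODE M21, mm10). It shares 1229 exonic bases with Dimt1 on the other strand, which was at 19.5 ± 3.30 CPM in the control and 18.2 ± 2.07 CPM in the knockout (SD, n = 3).

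Kif24 and Kif2c, the paralogues of Kif2a in the kinesin-13 subfamily, were far less abundant. Kif24 remodels microtubules at the mother centriole and holds back cilium growth. It was at 2.02, 1.89 and 1.78 CPM in the control and 2.38, 2.22 and 1.54 CPM in the knockout, so the knockout libraries lay on both sides of the control ones. Kif2c, also known as MCAK, corrects the attachment of microtubules to kinetochores in mitosis. It was at 0.616, 1.12 and 0.892 CPM in the control and 0.795, 0.526 and 0.864 CPM in the knockout, and the groups overlapped. Per length, Kif2a exceeded Kif24 by 64.4 times and Kif2c by 75.8 times in the control.

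Neither paralogue was called in the knockout. Kif24 had a log2 fold change of 0.12 (SE 0.25, edgeR adjusted p = 0.984), with a 95% interval of 72.2% to 162% of control. Kif2c had a log2 fold change of -0.26 (SE 0.37, edgeR adjusted p = 0.981), with an interval of 46.6% to 149%. Kif2c had 9 to 19 counts per library and Kif24 had 25 to 45. A change of Kif2c to less than 46.6% or more than 149% of control lies outside the interval, and a smaller one lies within it. The interval is not a limit of detection, as the fit without the block called 0 of 15043 tested genes.

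**Figure D3:**
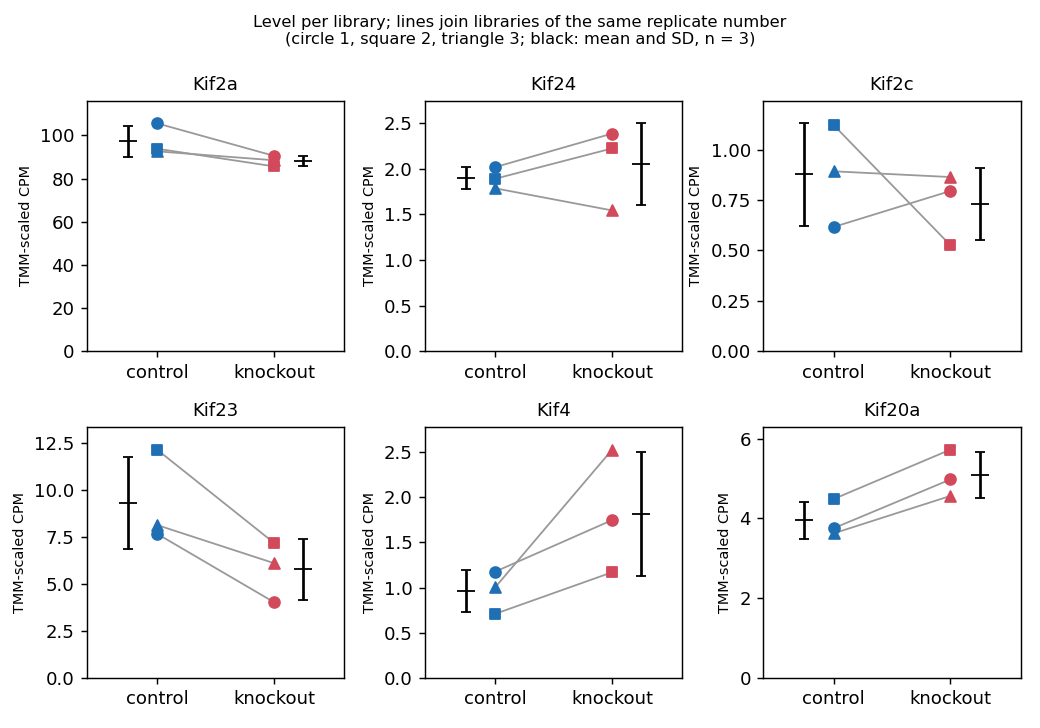
Level per library of the 3 kinesin-13 genes (top) and of Kif23, Kif4 and Kif20a (bottom), in TMM-scaled CPM from 0, with grey lines joining libraries of the same replicate number and black bars for the mean and SD of each group (n = 3). Kif23 is lower and Kif4 and Kif20a are higher in the knockout in all 3 pairs, while the lines of Kif24 and Kif2c run in both directions.

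Kif23 was the 1 member that passed. It encodes MKLP1, a kinesin-6 motor that bundles the antiparallel microtubules of the spindle midzone and is needed for cytokinesis, and that is also known from dendrites of cultured rodent neurons. Kif23 was at 7.67, 12.2 and 8.14 CPM in the control and 4.03, 7.19 and 6.11 CPM in the knockout. All knockout libraries lay below all control libraries, and control replicate 2 was the highest. Kif23 fell by 0.70 on the log2 scale with the block (SE 0.16, edgeR adjusted p = 0.0339), with a 95% interval of 48.7% to 78.1% of control. Without the block the log2 fold change was -0.69 (SE 0.27) and did not pass (edgeR adjusted p = 0.899).

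The Kif23 call depended on pair 1. With the block and without that pair it was lost (-0.60, SE 0.20, edgeR adjusted p = 0.201), and it held without pair 2 (adjusted p = 0.0469) and without pair 3 (adjusted p = 0.0129). Without the block, leaving out control replicate 2, the library with muscle RNA, took the log2 fold change to -0.45 (SE 0.26). In the authors' deposited table Kif23 had the lowest false discovery rate of the members, 0.296, with a log2 fold change of -0.70. The Kif23 locus is chr9:61915905-61946774, minus strand, with no exonic overlap with another annotated gene.

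The other kinesin-6 genes had positive log2 fold changes and did not pass. Kif20a, or MKLP2, brings the chromosomal passenger complex to the spindle midzone. It was at 3.75, 4.49 and 3.62 CPM in the control and 4.98, 5.73 and 4.56 CPM in the knockout. All knockout libraries lay above all control libraries, and the log2 fold change was 0.36 (SE 0.19, edgeR adjusted p = 0.93 without and 0.287 with the block). Kif20a shares 1271 exonic bases with Cdc23 on the other strand, which was at 35.5 ± 2.89 and 33.1 ± 2.498 CPM in control and knockout (SD, n = 3). Kif20b, a midzone motor also known to shape neuronal polarity, was at 2.73 ± 0.181 CPM in the control and 2.92 ± 0.713 CPM in the knockout and did not pass. Among all tested members, Kif2a, Kif23 and Kif20a were those whose groups did not overlap. These 3 make up 11.1% of the 27 tested members, the same share as the 11.1% over all tested genes. The shares over all tested genes were 6.12% for genes lower in every knockout library, as Kif2a and Kif23 were, and 5.02% for genes higher in every one, as Kif20a was.

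Kif4 had the highest fitted log2 fold change of the tested members, yet it did not pass. It encodes a chromokinesin that condenses chromosomes and shortens midzone microtubules. Kif4 was at 1.18, 0.708 and 1.004 CPM in the control and 1.75, 1.17 and 2.53 CPM in the knockout. The groups overlapped by 1 narrow margin, as knockout replicate 2 lay just under control replicate 1. Its log2 fold change was 0.90 (SE 0.36, edgeR adjusted p = 0.905 without and 0.146 with the block), and it was 0.60 without knockout replicate 3. Kif4 rested on 12 to 41 counts per library. It shares 832 exonic bases with Pdzd11 on the other strand, which was at 58.6 ± 9.91 CPM in the control and 53.8 ± 5.91 CPM in the knockout (SD, n = 3), far above Kif4 itself.

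The promoters of Kif23, Kif4 and Kif11 are shown because their log2 fold changes had both signs. These mitotic motors share a sequence feature of cell cycle genes. Kif23 fell, and the positive values of Kif4 and Kif11 did not pass. The cell cycle homology element is read here as the letters TTTGAA or TTCGAA on either strand. It was searched from 250 bases before to 30 bases after each RefSeq gene start (GRCm38.p6), and a promoter was listed for 10 of the 11 mitotic and 13 of the 16 other motor genes. Capitals mark the match. On the minus strand of the gene the first form reads TTCAAA, as in Kif11, and the second reads the same on both strands.
Kif23: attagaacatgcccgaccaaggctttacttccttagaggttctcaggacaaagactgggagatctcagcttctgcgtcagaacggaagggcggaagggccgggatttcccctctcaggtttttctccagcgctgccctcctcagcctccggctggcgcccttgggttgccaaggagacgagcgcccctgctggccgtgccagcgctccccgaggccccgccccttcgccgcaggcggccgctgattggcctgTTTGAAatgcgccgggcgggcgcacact
Kif4: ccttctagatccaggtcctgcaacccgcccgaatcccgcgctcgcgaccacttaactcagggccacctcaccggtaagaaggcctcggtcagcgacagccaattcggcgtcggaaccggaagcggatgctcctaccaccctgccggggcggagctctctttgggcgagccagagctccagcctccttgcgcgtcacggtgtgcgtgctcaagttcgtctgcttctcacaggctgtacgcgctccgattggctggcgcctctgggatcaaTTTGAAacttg
Kif11: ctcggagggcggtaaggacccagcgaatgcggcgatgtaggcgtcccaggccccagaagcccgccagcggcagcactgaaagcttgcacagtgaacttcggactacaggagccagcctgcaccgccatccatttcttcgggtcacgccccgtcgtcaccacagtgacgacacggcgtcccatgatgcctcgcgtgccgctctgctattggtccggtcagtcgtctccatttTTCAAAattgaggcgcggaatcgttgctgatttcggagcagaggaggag
The Kif23 stretch is chr9:61946770-61947049 on the minus strand, that of Kif4 is chrX:100625815-100626094 on the plus strand, and that of Kif11 is chr19:37376132-37376411 on the plus strand. The match begins at base 3 after the start in Kif23, at base 20 after it in Kif4 and at 19 bases before it in Kif11. Matches were found in 9 of the 10 mitotic members with a promoter (90.0%), Kif18a being the one without, and in 3 of the 13 other motor genes (23.1%), namely Kif24, Kif26b and Kif27. Of the genes of mitosis and proliferation outside the members, 15 of the 29 with a promoter had a match (51.7%). The share over all 27025 genes was 20.9%, and over all 32851 promoters 18.4%. A match describes letters in this window and shows no binding.

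None of the remaining mitotic motors that were tested passed. Kif11, or Eg5, the kinesin-5 that pushes spindle poles apart, was at 2.86, 3.66 and 4.63 CPM in the control and 4.18, 4.62 and 5.12 CPM in the knockout. The groups overlapped, with each knockout library above the control library of its number, and the log2 fold change was 0.32 (SE 0.23, edgeR adjusted p = 0.957). It was 0.15 without control replicate 1 and 0.51 without control replicate 3. Kif18b, a kinesin-8 that shortens astral microtubules, was at 0.224, 0.295 and 0.335 CPM in the control and 0.371, 0.526 and 0.925 CPM in the knockout. Its groups did not overlap, but it rested on 4 to 15 counts per library and was not tested. The authors' deposited table gave Kif18b a log2 fold change of 1.08 at a false discovery rate of 0.785.

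Kif22, the kinesin-10 that pushes chromosome arms toward the spindle equator, was at 5.94, 7.14 and 6.24 CPM in the control and 6.14, 7.01 and 6.23 CPM in the knockout. Its 95% interval of 77.6% to 130% of control was the narrowest among the mitotic motors tested. Kif15, a kinesin-12 that can stand in for Kif11 at the spindle, was at 1.29, 1.004 and 1.84 CPM in the control and 1.01, 1.05 and 1.85 CPM in the knockout, so the groups overlapped almost fully. Kif18a, a kinesin-8 that restrains chromosome movement in metaphase, was at 2.06 ± 0.688 and 1.95 ± 0.577 CPM, and Kif14, which acts in cytokinesis, at 0.493 ± 0.252 and 0.585 ± 0.192 CPM. Together with Kif2c and Kif20b, 6 of the 10 tested mitotic members had a positive and 4 a negative log2 fold change, and 1 of them, Kif23, passed.

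Genes of mitosis and proliferation outside the members were mostly on the positive side, unlike Kif23. Of the 32 tested, 29 had a positive log2 fold change, with a median of 0.26 beside 0.01 over all tested genes. With the block, 1 rose and 0 fell, beside 1.24% and 2.36% of all tested genes. The gene that rose was Mki67, the proliferation marker, at 5.43, 6.67 and 9.70 CPM in the control and 7.36, 9.29 and 17.6 CPM in the knockout (log2 fold change with the block 0.60, SE 0.14, edgeR adjusted p = 0.0421). Its groups overlapped, and knockout replicate 3 was the highest. Birc5, the survivin subunit of the chromosomal passenger complex, did not pass, with 3.66 ± 0.0510 and 6.42 ± 1.83 CPM (SD, n = 3). Racgap1, the partner of Kif23 in the centralspindlin complex, was looked up after the Kif23 values were seen. It was at 10.6, 6.38 and 11.5 CPM in the control and 13.03, 10.2 and 12.03 CPM in the knockout, and was not called by edgeR (adjusted p = 0.228, blocked).

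Markers of neutrophils and their precursors and of erythroid cells were also mostly higher in the knockout. Over all tested genes, 1.24% rose with the block. All 9 neutrophil markers had a positive log2 fold change, with a median of 0.80, and 6 rose. Their summed level was 54.0, 74.6 and 185 CPM in the control and 109, 141 and 294 CPM in the knockout, and 0 of the 9 were without counts in any library. Knockout replicate 3 was highest in these markers as well as in Mki67, Kif4, Kif18b and Kif11, and by a narrow margin in Kif14 and Kif15. The other mitotic members differed: Kif20a and Kif20b were highest in knockout replicate 2, and Kif23, Kif18a, Kif22 and Kif2c in control replicate 2. Macrophage markers ran from 65.9 to 130 CPM in the control and from 82.3 to 165 CPM in the knockout, and 2 of 8 rose. All 3 tested erythroid markers, of 7 listed, had a positive log2 fold change, with a median of 0.80. Of them 1, Slc4a1, rose (edgeR adjusted p = 0.0157 with the block). The haemoglobin genes Hba-a1, Hba-a2, Hbb-bs and Hbb-bt of that list were not analysed here. The summed level of the erythroid markers was 18.0 to 39.8 CPM in the control and 26.4 to 72.0 CPM in the knockout, again highest in knockout replicate 3. Of 2 tested B cell precursor markers, 1 had a positive and 1 a negative log2 fold change, and neither passed. The part of these cells in the mitotic kinesin values was not tested.

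**Figure D4:**
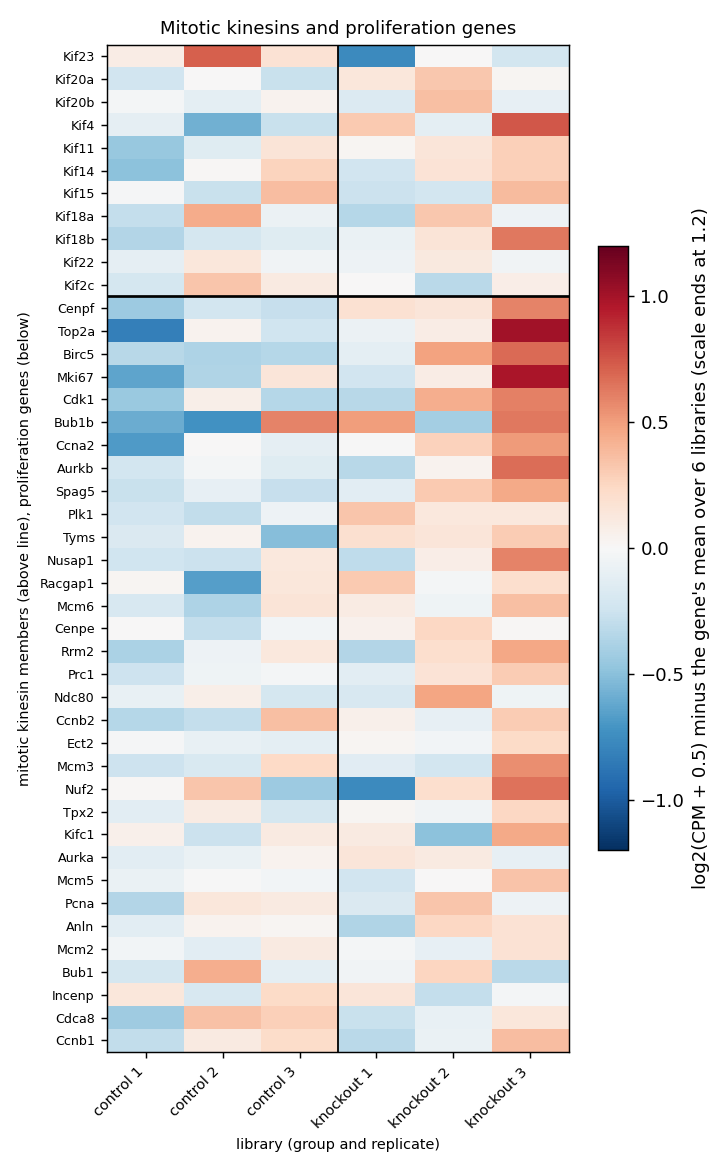
Heat map of the 11 mitotic kinesin members (above the black line) and of 33 genes of mitosis and proliferation (below it) in the 6 libraries, where colour is log2(CPM + 0.5) minus the mean of that gene over the 6 libraries, with the scale ending at 1.2. Kif23 is highest in control replicate 2 and lowest in knockout replicate 1, whereas many proliferation genes are highest in knockout replicate 3.

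Of the 5 kinesin-3 members, 3 had a negative log2 fold change. Kif13b, Kif13a, Kif16b and Kif1c lay between 3.10 and 6.26 CPM per kb in the control, while Kif14, described above with the mitotic motors, was the lowest of all members. Kif13b is known to carry phosphoinositide-bearing vesicles to axon tips. It was at 51.5, 31.3 and 38.0 CPM in the control and 42.5, 28.8 and 24.4 CPM in the knockout, lower in all 3 pairs although the groups overlapped. The log2 fold change was -0.34 (SE 0.24, edgeR adjusted p = 0.957), and with the block the SE was 0.10 and the edgeR adjusted p was 0.0961. The value of Kif13b moved with the libraries used. In the blocked fit it was -0.44 without pair 2 (edgeR adjusted p = 0.00106), which passed, and -0.20 without pair 3 (adjusted p = 0.263), which did not. Without the block it was -0.60 when knockout replicate 1 was left out and -0.13 when control replicate 1 was, and it was not called in either fit. Kif13a, an endosome and Golgi motor, was at 41.5 ± 4.27 and 35.6 ± 3.95 CPM (SD, n = 3) and was likewise lower in all 3 pairs (-0.22, edgeR adjusted p = 0.137 with the block).

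Kif16b, which moves early endosomes, was at 61.0, 52.7 and 56.6 CPM in the control and 60.3, 50.7 and 55.8 CPM in the knockout. The libraries of each number lay close together, and the 95% interval was 81.8% to 117% of control. Kif1c, a motor of dense-core vesicles and integrins, was at 39.9 ± 3.37 and 42.1 ± 3.52 CPM (SD, n = 3), with an interval of 87.5% to 127%. A change of Kif16b or Kif1c by 1.5-fold in either direction lies outside these intervals.

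Kif21a was at 1289, 1241 and 1127 CPM in the control and 1213, 1202 and 1080 CPM in the knockout, with a log2 fold change of -0.06 (SE 0.11, edgeR adjusted p = 0.984). Each knockout library was just below the control library of its number, and the interval was 79.8% to 115% of control. Its neuronal paralogue Kif21b, which limits microtubule growth in dendrites, was at 14.0 ± 4.81 and 16.4 ± 3.31 CPM (SD, n = 3). Kif21b was higher in all 3 pairs but did not pass (edgeR adjusted p = 0.981 without and 0.292 with the block).

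Motors of the cilium did not pass. Kif7, which organises the tip of the cilium in hedgehog signalling, was at 3.44 ± 0.611 CPM in the control and 3.94 ± 0.533 CPM in the knockout (SD, n = 3). Its relative Kif27 was at 1.75 ± 0.308 and 1.92 ± 0.233 CPM, and neither passed. The kinesin-2 motor Kif17 was at 2.13, 1.89 and 1.45 CPM in the control and 3.28, 1.58 and 2.10 CPM in the knockout, with knockout replicate 1 the highest and the groups overlapping. Kif19a, a kinesin-8 that sets the length of motile cilia by depolymerising microtubules, was the most abundant member of this set. It was at 20.4, 12.3 and 20.1 CPM in the control and 21.4, 12.4 and 20.0 CPM in the knockout, so each knockout library lay close to the control library of its number. Kif9, a kinesin-9 known from motile cilia and sperm, was at 5.49, 7.79 and 6.64 CPM in the control and 6.20, 4.91 and 5.92 CPM in the knockout, and the groups overlapped. Its relative Kif6 was at 0.972 ± 0.406 CPM in the control and 0.980 ± 0.119 CPM in the knockout (SD, n = 3). Of 30 tested genes of the centriole, cilium and hedgehog pathway, 0 rose and 0 fell with the block, and 20 had a negative log2 fold change. The shares over all tested genes were 1.24% that rose and 2.36% that fell.

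Kif26b and Kif26a belong to kinesin-11, whose members lack ATPase activity. Kif26b was at 25.1, 11.2 and 16.9 CPM in the control and 20.6, 11.6 and 10.3 CPM in the knockout. It varied widely within both groups, with replicate 1 highest in each. The log2 fold change was -0.32 (SE 0.34, edgeR adjusted p = 0.981), and it passed in the blocked fit only without pair 2 (-0.48, adjusted p = 0.0209). Kif26a, which restrains GDNF-Ret signalling in enteric neurons of mice, was at 4.25 ± 1.01 and 4.53 ± 0.779 CPM (SD, n = 3). Kif1bp, whose loss in humans causes a disorder of enteric and central neurons, was at 113 ± 8.88 and 122 ± 11.3 CPM and did not pass (edgeR adjusted p = 0.981).

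**Figure D5:**
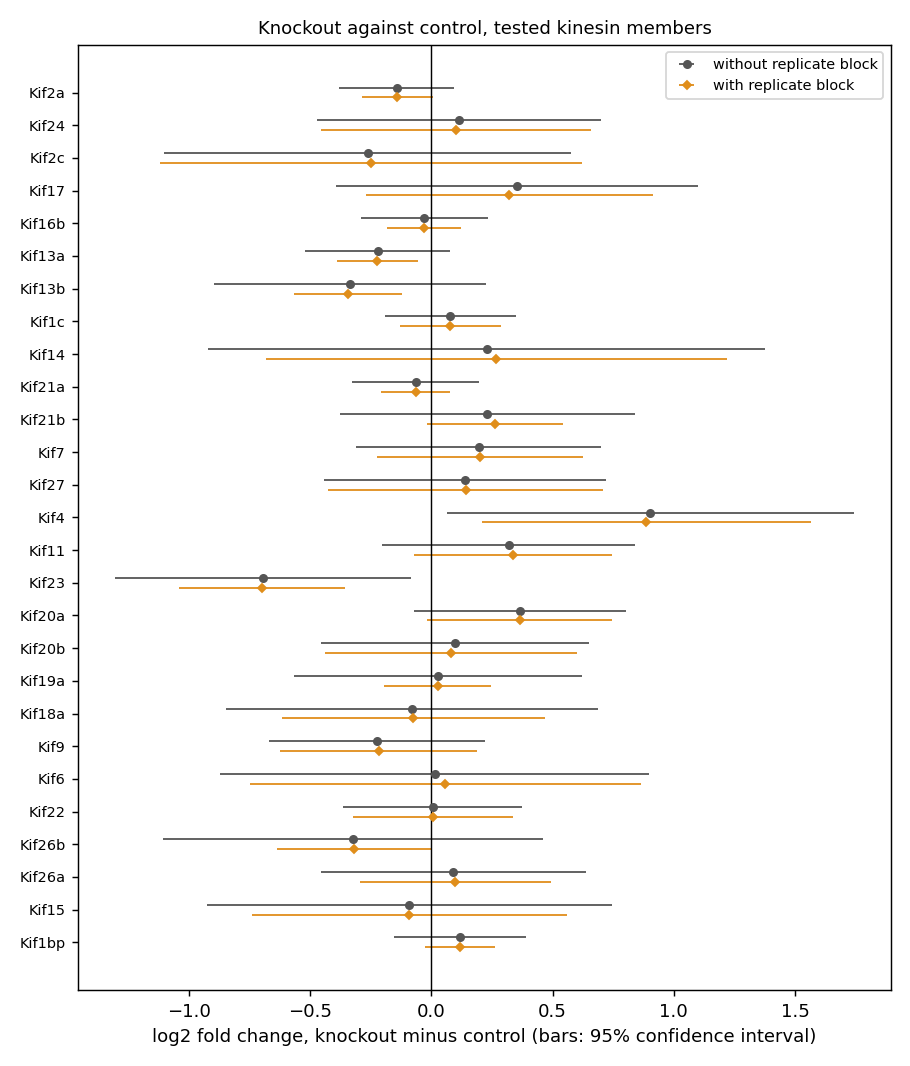
Log2 fold change of the 27 tested members, knockout minus control, with 95% confidence intervals, without (grey circles) and with the replicate block (orange diamonds). The intervals of 25 members include 0 without the block, those of Kif23 and Kif4 being the exceptions, and the bars are shorter with the block for most members.

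Many of the non-mitotic members had their highest level in the same replicate number in both groups. Among the 16 tested motors outside the mitotic list, 12 were highest in replicate 1 in both the control and the knockout. Over all tested genes this held for 27.9%, and for the mitotic members it held for 0 of 10. Kif2a, Kif21a, Kif16b, Kif13a, Kif13b, Kif21b, Kif26b and Kif19a were among the 12. The summed sensory neuron markers were also highest in replicate 1 of each group, at 11843 and 11670 CPM. Summed macrophage markers were lowest there, at 65.9 and 82.3 CPM. Single neuron markers differed. Avil, Prph, Rbfox3 and Scn10a were highest in replicate 1 of both groups, Uchl1 and Snap25 in replicate 3 and Scn9a in replicate 2. For Tubb3, Isl1 and Pou4f1 the highest replicate differed between control and knockout. The part of cell composition in the replicate pattern of the members was not tested. The block lowered the SE of 25 of the 27 tested members. With it, 5 members had an unadjusted p under 0.05, namely Kif23, Kif4, Kif13a, Kif13b and Kif26b (18.5% of 27, against 19.1% of all tested genes). Knockout and control differed in the same direction in all 3 pairs for 14 of 27 members (51.9%), against 42.0% of all tested genes.

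A list of genes related to microtubule depolymerisation, severing and end binding, with some kinase genes, was also counted. Of 35 tested genes for stathmins, severing enzymes, end-binding proteins and kinases, 0 rose and 2 fell with the block, and their median log2 fold change was -0.01. Camk2a, a calcium-dependent kinase gene, was at 205 ± 21.8 CPM in the control and 130 ± 25.6 CPM in the knockout (SD, n = 3) and fell by 0.67 (SE 0.07, edgeR adjusted p = 0.000425). Ckap5, a microtubule polymerase gene, fell by 0.54 (SE 0.07, edgeR adjusted p = 0.00127). Pak1, a kinase known to phosphorylate Kif2a, was at 181 ± 22.3 and 214 ± 9.70 CPM and did not pass. Of 18 tested kinesin superfamily genes outside the members, 0 rose and 2 fell, Kif5a and Kif5b. Over all tested genes, 1.24% rose and 2.36% fell with the block.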

How the data were processed

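Messenger RNA of dorsal root ganglia was sequenced in 3 control and 3 knockout libraries, grouped by sample title. RNA came from a TRIzol extraction and libraries from its poly(A) fraction, per the labels' protocols, which do not state whether strand was kept. The tools cutadapt, STAR and DESeq2 and the build mm10 are listed in the submitters' processing notes. The authors deposited 1 table of raw counts per gene, with log2 fold changes, p-values and a false discovery rate from fdrtool per the file headers. A set of 12 other per-library columns was not used. No gene of the table totals under 6 counts over all libraries.

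For the tests, run with edgeR 4.0.16 under R 4.3.3, filterByExpr kept 15043 genes. Counts were scaled by TMM and fitted by a robust quasi-likelihood model with group as the only term. Adjusted p-values are by the Benjamini-Hochberg method over all tested genes, with a threshold of 0.05. SEs and 95% intervals were derived from the F statistics. Lengths are exonic lengths of GENCODE M21, in which all 28 members were matched by symbol. The fit was run on simulated counts that had no replicate effect, so that run does not test the pairing of the real libraries.

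Alternatives were a replicate block, DESeq2 1.42.0, limma-voom (limma 3.58.1), RLE scaling, no filter, and leaving out each library or pair. Over 15043 genes, deviations of same-numbered libraries from their group means had correlations of 0.53, 0.30 and 0.17 for pairs 1, 2 and 3, each above the minimum of 0.1. The labels do not say what a number shares, so the pairing comes from the data. Control replicate 2 and knockout replicate 3 correlated at 0.14.

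Values in every library or full statistics were given for kinesin-13 genes, for members with an unadjusted p under 0.05 without the block or an adjusted p under 0.05 with it, for members whose groups did not overlap and for the most abundant member of each subfamily, and others were summarised. Members, gene lists and tests were chosen with earlier results of these data known.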

Additional observations from a re-analysis of the deposited data

How the results depend on the processing

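Of the 135 log2 fold changes recomputed with 1 choice changed and all libraries kept, 134 kept their direction and their side of the threshold, and 1 passed it, that of Kif23 with the replicate block (-0.70). The number of genes called was 0 without the block, 65 with DESeq2 and 542 with the replicate block. It was 0 with limma-voom, RLE scaling, no filter or any 1 library left out, and with the block it was 208, 819 and 897 without pairs 1, 2 and 3. The number of members called was 0 without the block and 1 with it, and ran from 0 to 3 with a library or a pair left out. With all libraries kept, the block changed no other member's call. Of 242 values with a library or a pair left out, 29 changed sign, in 14 members. With 1 library left out and no block, the log2 fold changes of those concerned ran from -0.13 to 0.62 for Kif14, -0.42 to 0.17 for Kif15, -0.095 to 0.033 for Kif16b, -0.33 to 0.22 for Kif18a, -0.17 to 0.24 for Kif19a, -0.12 to 0.21 for Kif20b, -0.063 to 0.093 for Kif22, -0.011 to 0.28 for Kif24, -0.060 to 0.26 for Kif26a, -0.70 to 0.00027 for Kif26b and -0.31 to 0.23 for Kif6. With the block, values of the other sign were -0.00024 for Kif1c without pair 3, -0.0076 for Kif19a without pair 1, -0.29 for Kif6 without pair 1, -0.16 for Kif20b without pair 2, 0.15 for Kif2c without pair 2, -0.026 for Kif22 without pair 1, 0.0101 for Kif9 without pair 2 and 0.023 for Kif15 without pair 1. The cause was not tested. Of the 27 tested members, 6 had intervals reaching a 2-fold change in at least 1 direction: Kif2c, Kif4, Kif14, Kif17, Kif23 and Kif26b.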
